A study of Mus musculus with 2 samples.

Results

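Osr1 and Osr2 are the mouse odd-skipped related genes, a pair of paralogs that encode zinc finger transcription factors. They were taken from the deposited transcript tables by their gene symbols, which gave 1 row for each and 2 of the 22072 symbols in the tables. The tables hold RNA of tongues dissected from mouse embryos of a mixed background at embryonic day 12. The control tongues were Osr1f/+, in which 1 copy of the gene was conditional (floxed) and the other wild type, and their label names no Cre. The mutant tongues were Osr1f/-; Wnt1cre, in which the conditional allele lies over a null allele and a Wnt1-driven Cre recombinase acts in the neural crest lineage. By the genotypes, both tongues carried 1 conditional allele, and the null allele was present in every cell of the mutant tongue and in none of the control. Cre was named for the mutant only, so its presence and the loss of Osr1 cannot be told apart. Tissue of 3 pairs of embryos was pooled for RNA, and each genotype gave 1 library. Every ratio therefore sets 1 library against another, no test between genotypes was possible, and variation between embryos was not measured.

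Odd-skipped genes were found in the fruit fly as segmentation genes, and their vertebrate relatives act in mesoderm and in mesenchyme of neural crest origin. In the mouse, Osr1 is required for the heart and for the intermediate mesoderm that forms the kidney, and Osr2 is required for growth of the palate and for keeping teeth in a single row. Both genes act in joint formation, and Osr1 marks connective tissue fibroblasts of the embryo. In the tongue, the mesenchyme between the muscle fibres comes from the cranial neural crest, while the muscle cells come from somites and are outside the Wnt1 lineage.

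The coding bases of the zinc fingers of Osr1 are shown because they encode the DNA-binding part of the gene targeted in the mutant. They are from an Osr1 transcript of GENCODE M21 (GRCm38) on chromosome 12, of 2012 nt, beside 2011 nt for the deposited RefSeq model. The bases run from 529 to 759 of the coding sequence, counted from 1 at the start codon. Capitals mark the codons of the cysteines and histidines that hold the zinc.
Osr1: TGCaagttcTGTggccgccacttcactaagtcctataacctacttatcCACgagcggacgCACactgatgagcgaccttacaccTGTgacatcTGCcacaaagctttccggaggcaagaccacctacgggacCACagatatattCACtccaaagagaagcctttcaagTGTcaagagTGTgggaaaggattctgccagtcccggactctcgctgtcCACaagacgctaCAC

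A search of the translated sequence of 266 codons for the cysteine and histidine spacing of a C2H2 finger found 3 fingers, within the 231 bases shown. Of the words of 36 bases in the whole Osr1 transcript, 26 of 1977 also occurred in transcripts of other genes, all of them between bases 1441 and 1501 of the transcript, beyond the coding part. The words of the fingers thus occurred in no other gene's transcripts. The deposited models of both genes overlapped no model of another symbol, and their status was OK in both libraries.

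The libraries held about 18900000 reads for the control and 23100000 for the mutant, as judged from coverage. A measured gene had at least 1 FPKM in either library and the status OK throughout, which 12383 symbols met, and the median of such genes was 9.91 FPKM in control and 9.99 in mutant tongue. The marker lists of 8 cell types were detected in both tongues, with no marker at 0 in either library. The summed FPKM of the 9 markers of cranial neural crest mesenchyme that had a row was 295.8 in control and 310.8 in mutant tongue, and that of the 10 myoblast markers was 598.6 and 618.7.

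Osr1 was strongly expressed in the control tongue and stood at 32.5% of that level in the mutant. The deposited row (NM_011859, mm9 chromosome 12, 9581248 to 9588306) is a spliced transcript of 2011 nt within a span of 7059 bases. In the control library it had a coverage of 50.7 and 56.8 FPKM, with a 95% counting interval of 54.4 to 59.2 FPKM from about 2157 reads. In the mutant library it had a coverage of 20.2 and 18.4 FPKM, with an interval of 17.2 to 19.7 FPKM from about 858 reads. The intervals did not overlap, and the ratio of mutant to control was 0.325, with an interval of 0.30 to 0.352. All intervals are exact, rest on estimated reads and cover counting error only. Coverage is not scaled for depth, and its unscaled ratio was 0.398 because the mutant library was the deeper of the pair by 1.22 times.

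The rank of Osr1 moved accordingly. Among all symbols it stood at position 896 in the control library, in the top 4.06%, and at position 3662 in the mutant library, in the top 16.6%. Its FPKM was 5.73 times the median of measured genes in the control and 1.85 times that median in the mutant library. Of the measured genes, 3.46% were at least 1.2-fold lower in the mutant on the scale of FPKM plus 1, and among the 820 with 40 to 80 FPKM in the control this share was 1.59%. Osr1, with a log2 ratio of -1.57 on that scale, had the lowest value of those 820, and so made up the whole share of 0.122% at or below it. At a minimum of 5 FPKM in either library, 8970 genes were left, of which 2 had a lower log2 ratio, the small nucleolar RNAs Snord37 and Snord58b, whose models of 53 and 55 nt overlap other models. Among all 12383 measured genes 10 were lower, of which 9 had no transcript of 300 nt or more. The tenth was Snap25, a gene of the synapse, at 3.45 FPKM in control and 0.239 in mutant tongue. All 10 passed the minimum of 1 FPKM through the control library alone, so the filter fixed their direction. Snord37, Snord58b and Snap25 were named after their values were seen.

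The value of 18.4 FPKM is for the whole transcript. The labels do not say which exons the conditional allele loses. RNA of a recombined allele or of the null allele may be part of that value, and intact message was not measured apart. Cells outside the neural crest lineage keep an unrecombined conditional allele in the mutant. In bulk RNA fewer expressing cells and less RNA per cell cannot be told apart.

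Osr2 was moderately expressed and higher in the mutant library. Its row (NM_054049, mm9 chromosome 15, 35225867 to 35233060) is a spliced transcript of 1710 nt within 7194 bases. In the control library it had a coverage of 12.2 and 13.6 FPKM, with a counting interval of 12.4 to 15 FPKM from about 440 reads. In the mutant library it had a coverage of 19.0 and 17.3 FPKM, with an interval of 16.1 to 18.7 FPKM from about 685 reads. The intervals did not overlap, and the ratio was 1.27 (1.13 to 1.44). Osr2 moved from position 4936 of all symbols, in the top 22.4%, to position 3916, in the top 17.7%.

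This difference was small against that of Osr1 but stood near the edge of the measured genes. On the FPKM plus 1 scale the log2 ratio of Osr2 was 0.33, and 386 of 12383 measured genes, or 3.12%, had a larger one. At least 1.2-fold higher were 4.77% of measured genes, and 2.03% of the 2857 with 10 to 20 FPKM in the control. In that range of levels, 40 genes, or 1.4% with Osr2 among them, had a log2 ratio at or above that of Osr2. For 5 genes in common use as references, Gapdh, Actb, Hprt, Tbp and Ppia, the ratio of FPKM ran from 0.837 for Hprt to 1.08 for Actb. These 5 were chosen after the members' values were seen and do not measure the spread of genes at the level of Osr2. The tables used here list 1 transcript model for each member, so alternative transcripts were not analysed here.

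**Figure D1:**
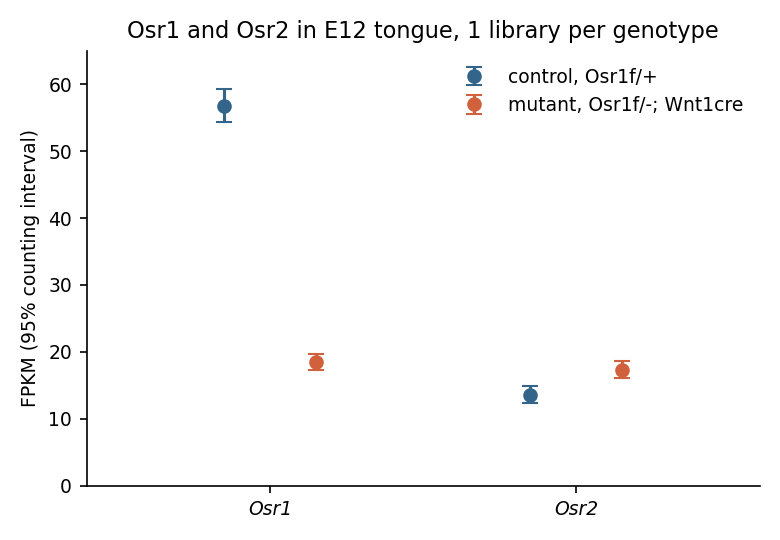
FPKM of Osr1 and Osr2 (vertical axis) in the control and the mutant library, with 95% counting intervals as bars and 1 library per point. Osr1 lies at 56.8 in the control and 18.4 in the mutant, and Osr2 at 13.6 and 17.3, so that the intervals of the pair overlap in the mutant library.

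The balance between the paralogs differed between the tongues. In the control library Osr1 had 4.17 times the FPKM of Osr2 (3.76 to 4.63), and in the mutant library 1.06 times (0.961 to 1.18), an interval that includes equal levels. FPKM are per length of the full transcript model, which allows for the different lengths of the genes. RNA of a recombined allele or of the null allele may be part of the Osr1 value in the mutant, so the balance of intact messages was not measured. Osr1 made up 80.7% of the summed FPKM of the pair in the control and 51.6% in the mutant. Together they reached 70.4 FPKM in control and 35.8 in mutant tongue, a sum 0.508 times as high. The difference in FPKM, mutant minus control, was -38.3 for Osr1 and 3.70 for Osr2, so the difference in Osr2 was 9.66% of that in Osr1 and of the opposite sign.

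**Figure D2:**
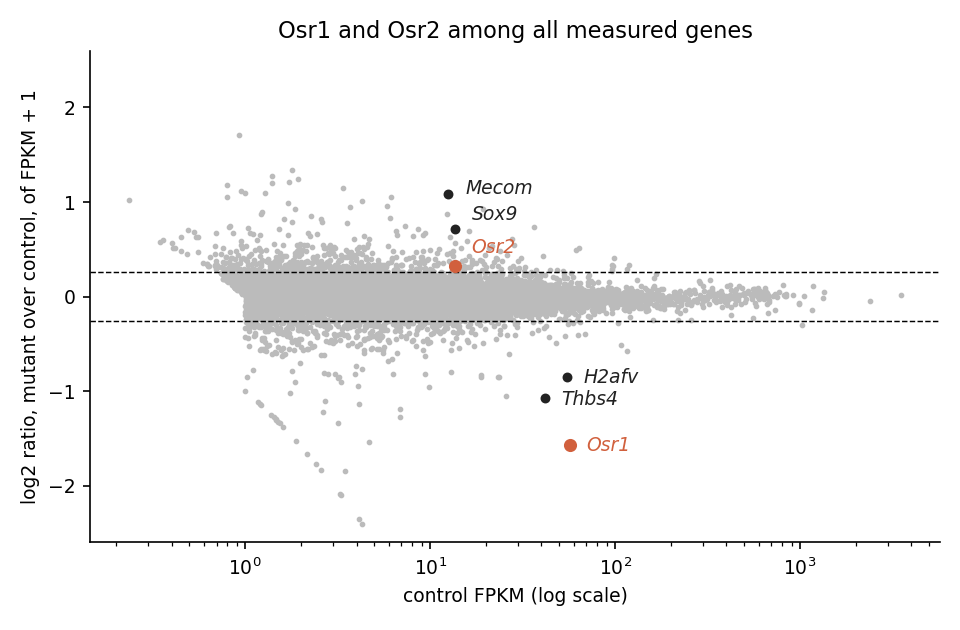
Log2 ratio of FPKM plus 1, mutant over control (vertical axis), against control FPKM on a log axis for 12339 of the measured genes (44 genes outside the axes are not drawn), with dashed lines at 1.2-fold. Osr1, at -1.57, lies apart from other genes of its level, and Osr2, at 0.33, lies just above the upper line.

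The levels of neural crest mesenchyme markers were close between the libraries. The 9 markers had log2 ratios from -0.08 to 0.16, with a median of 0.06, and the ratio of their summed FPKM was 1.05. Myoblast markers had a summed ratio of 1.03 and endothelial markers of 1.04. Summed levels were lower in the mutant library for markers of epithelium (ratio 0.886), erythroid cells (0.815), neurons (0.819) and the Schwann lineage (0.810), and higher for macrophages (1.16). These 8 sums had ratios from 0.810 to 1.16, and the ratio of Osr1 was 0.325. The part of cell type shares in the difference of Osr1 or of Osr2 was not tested. Xist, the noncoding RNA of X inactivation, whose model overlaps another, measured 61.1 FPKM in control and 86.1 in mutant tongue, so the pools also differed in a gene that depends on the sex of the embryos.

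With 2 libraries, likeness to a member can only mean similar levels in both, measured here as the distance in log2 of FPKM plus 1. The genes closest to Osr1 were Thbs4, a matrix glycoprotein gene of tendon, at a distance of 0.45, the histone variant gene H2afv at 0.67 and the transcription cofactor gene Lbh at 0.85. Thbs4 had 41.5 and 19.2 FPKM, H2afv 54.6 and 29.8 FPKM, and Lbh 35.5 and 27.0 FPKM in the control and the mutant library. Their ratios were 0.462, 0.546 and 0.761. Few measured genes had a lower ratio than Osr1, so ratios closer to 1 were nearly fixed in advance. Osr2 had nearer companions, in a range of levels with more genes. In the control 2857 measured genes had 10 to 20 FPKM, and 820 had 40 to 80 FPKM. Foxp2, a forkhead transcription factor gene, had 13.6 and 17.2 FPKM, D430019H16Rik had 13.9 and 17.3 FPKM, and Scube1, which encodes a secreted and membrane-bound glycoprotein, had 13.9 and 17.2 FPKM. Their distances from Osr2 were 0.01, 0.02 and 0.02.

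The genes nearest to Osr1 did not share its difference. Osr1 stands alone in the deposited models, with Ttc32 538.0 kb before it and Nt5c1b 789 kb after it. Ttc32 measured 2.75 FPKM in control and 3.84 in mutant tongue (ratio 1.39, interval 0.978 to 2.00) from about 52 and 89 reads, and Wdr35, which encodes a protein of ciliary transport, had 6.83 and 7.14 FPKM. On the other side Rdh14, a retinol dehydrogenase gene, measured 9.09 FPKM in control and 9.97 in mutant tongue (ratio 1.10, interval 0.929 to 1.30). Nt5c1b was listed at 0 in the control, with about 3 reads in the mutant library, and Matn3, a matrilin gene, stayed under 1 FPKM in both. Kcns3, a potassium channel gene, had a ratio of 1.43 (0.970 to 2.10). For the 5 Osr1 neighbours with a ratio, each counting interval included 1, and each lay above the interval of Osr1.

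Around Osr2 the nearest models were Stk3, which encodes a kinase of the Hippo pathway, 140.3 kb before it, and Vps13b, a gene for a protein of membrane traffic, 68.2 kb after it. Stk3 measured 11.9 FPKM in control and 11.1 in mutant tongue (ratio 0.937, interval 0.843 to 1.04). Vps13b, whose model overlaps others, measured 3.87 FPKM in control and 4.43 in mutant tongue (ratio 1.14, interval 1.05 to 1.24). Kcns2 and Nipal2 had ratios of 1.12 (0.715 to 1.78) and 1.07 (0.793 to 1.46). The interval of Stk3 lay below that of Osr2, and those of the other three overlapped it. The microRNA models Mir599 and Mir875, of 88 and 78 nt within Vps13b, were listed at 0 in both libraries.

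Among other developmental factors with C2H2 zinc fingers, Osr1 was the second most abundant in the control. Of 43 such genes with a row, Plagl1, an imprinted regulator of growth, was first with 422.9 FPKM, followed by Osr1 and by Hic1, a repressor, with 44.9 FPKM. In the mutant library Osr1 was at position 10, below, among others, Gli1, Snai2, Snai1, Sall2, Bcl11a and Zeb1, whose model overlaps another. Osr2 was at position 11 in the control and at position 13 in the mutant, although its own FPKM was higher there. Without the members, 26 of these genes were measured, of which 12 were higher and 14 lower (51.2% and 48.8% of all measured genes were), with a median log2 ratio of -0.03 beside 0.0035 over all measured genes. Of the 26, 4 were at least 1.2-fold higher and 3 at least 1.2-fold lower. Of these 7, Sall1 among the higher and Sp6 among the lower passed the minimum through 1 library alone, as did Sall4, so the filter fixed the direction of these 3 genes, which were named after their values were seen. Mecom measured 12.6 FPKM in control and 27.7 in mutant tongue (ratio 2.21, interval 2.07 to 2.41). Zfp521, a factor of mesenchymal and blood progenitors, measured 13.6 FPKM in control and 17.8 in mutant tongue (ratio 1.31, interval 1.23 to 1.4). Gli1, a target and effector of hedgehog signalling whose model overlaps another, measured 38.2 FPKM in control and 29.7 in mutant tongue (ratio 0.777, interval 0.736 to 0.821).

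**Figure D3:**
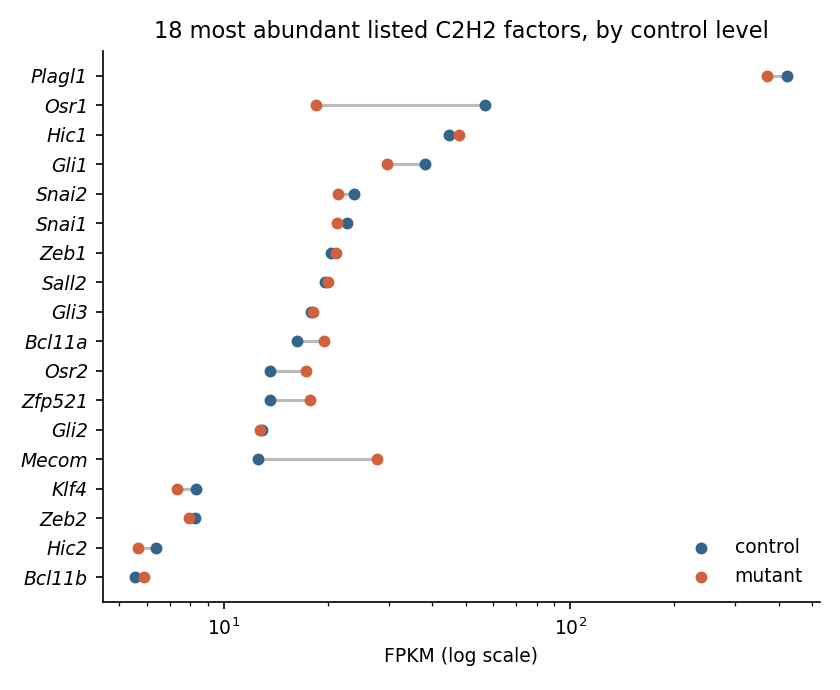
FPKM on a log axis of the 18 listed C2H2 factors with the highest control level, ordered by it, with a line joining the control and the mutant library of each gene. Osr1 lies in second place, at 56.8, in the control and at 18.4 in the mutant, among the Snai, Zeb and Sall genes, and Mecom lies at 12.6 and 27.7.

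In the fruit fly, Odd-skipped protein represses its targets with the corepressor Groucho, whose mouse relatives are the TLE genes. All 6 TLE genes were measured, none of them past 1.2-fold in either direction, and the median log2 ratio was 0.01. Aes, a short relative, had 121.8 and 120.0 FPKM, and Tle4 had 21.8 and 21.1 FPKM. Tle1 measured 16.7 FPKM in control and 19.0 in mutant tongue (ratio 1.14, interval 1.06 to 1.22), the largest difference of the 6 in log2 of FPKM plus 1.

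The listed factors of the intermediate mesoderm and kidney were only partly present in tongue. Of 18 listed, 8 were measured, and Wt1, Pax2, Pax8 and Lhx1 had under 1 FPKM in both libraries. Of the 8, 5 were at least 1.2-fold higher, 1 was at least 1.2-fold lower, and the median log2 ratio was 0.36. Eya1, a transcriptional coactivator, measured 5.93 FPKM in control and 9.02 in mutant tongue (ratio 1.52, interval 1.36 to 1.70). Gfra1, which encodes a receptor of the ligand Gdnf, measured 13.2 FPKM in control and 18.2 in mutant tongue (ratio 1.37, interval 1.26 to 1.5), and the ligand gene itself was under 1 FPKM in both. Cited1, a transcription cofactor of nephron progenitors, was the lower one, at 28.9 FPKM in control and 21.7 in mutant tongue (ratio 0.749, interval 0.661 to 0.848). Sall1 passed the minimum through the mutant library alone and so had to be higher.

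Among listed factors of the heart, lung and body wall, 10 of 13 with a row were measured, 5 higher and 5 lower. Their median log2 ratio was -0.06, and 1 was at least 1.2-fold higher and 2 lower. The lower ones were the homeobox gene Nkx2-5, with a ratio of 0.746 (0.646 to 0.862), and the forkhead gene Foxf1a, with 0.827 (0.745 to 0.918).

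The listed genes of palate and tooth were nearly evenly split. Of 22 listed genes 21 were measured, 11 higher and 10 lower, with a median log2 ratio of 0.01, and 4 were at least 1.2-fold higher and 2 lower. Pax9, which acts upstream of Osr2 in the palate, measured 8.03 FPKM in control and 7.84 in mutant tongue (ratio 0.977, interval 0.853 to 1.12), and was named after its values were seen. Dkk2, a secreted modulator of WNT signalling, and the semaphorin gene Sema3d had ratios of 1.45 (1.26 to 1.68) and 1.25 (1.13 to 1.38), close to or above that of Osr2, and Shh, whose model overlaps another, had 0.757 (0.647 to 0.886).

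Most measured joint genes were higher in the mutant library, from low levels. Of 10 listed, 8 were measured, 7 higher and 1 lower (51.2% and 48.8% of all measured genes were). Their median log2 ratio was 0.22, and 4 were at least 1.2-fold higher. The counting intervals of Gdf6, Wnt4, Wnt9a and Cd44 among the higher, and of Col22a1, the lower one, included 1. Those genes were named after their values were seen. Only Erg and Dcx reached 5 FPKM, and they are also markers of endothelium and of neurons. Their ratios were 1.27 (1.06 to 1.53) and 1.32 (1.24 to 1.41), beside 1.27 for Osr2. Gdf5, the ligand that marks joint interzones, measured 0.775 FPKM in control and 1.27 in mutant tongue and was named after its values were seen. It passed the minimum through the mutant library alone and so had to be higher.

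Genes of connective tissue fibroblasts, a population that Osr1 marks, went in both directions. Of 21 measured, 8 were higher and 13 lower, with a median log2 ratio of -0.03, and 2 were at least 1.2-fold higher and 4 lower. Besides Thbs4, given above, the decorin gene Dcn had a ratio of 0.680 (0.604 to 0.766), and Cxcl12, a chemokine gene of mesenchyme, one of 1.26 (1.22 to 1.31).

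All 8 listed genes of chondrocyte fate were higher in the mutant library, 7 of them by at least 1.2-fold, with a median log2 ratio of 0.38. Acan and Matn1 passed the minimum through that library alone and so had to be higher. Sox9, which directs cells to cartilage, stood at 13.6 FPKM in control tongue, and at 23.1 in mutant tongue (ratio 1.69, interval 1.57 to 1.82). In FPKM Osr1 was thus above Sox9 in the control and below it in the mutant library. Osr2 lay level with Sox9 in the control and below it in the mutant library. For each list the shares past the fold stand beside the 4.77% and 3.46% of all measured genes that were at least 1.2-fold higher and lower. Counts in each direction stand beside the 51.2% higher and 48.8% lower of all measured genes. Besides those of the C2H2, kidney and chondrocyte lists given above, other listed genes passed the minimum through 1 library alone. They were 1 gene each in the palate (Shox2), joint (Gdf5) and fibroblast (Dpt) lists, and 2 in the heart list (Tbx5 and Wnt2). The filter fixed their direction, and all but Wnt2 are in the counts past 1.2-fold. Tbx5 was the only heart gene counted as at least 1.2-fold higher.

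**Figure D4:**
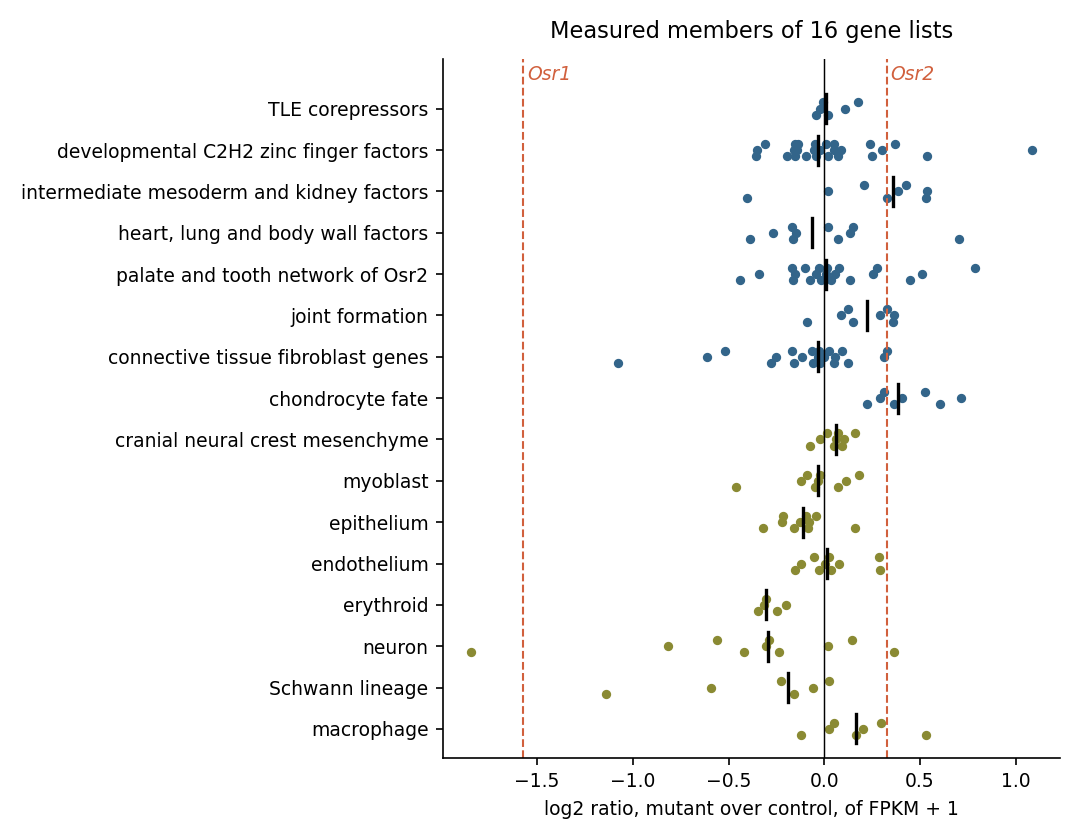
Log2 ratio of FPKM plus 1, mutant over control, for the measured genes of 8 gene groups (blue) and 8 lists of cell type markers (olive), 1 point per gene, with the median of each list as a black bar and the members as dashed lines. The crest mesenchyme markers lie between -0.08 and 0.16, the line of Osr1 lies at -1.57, and all 8 chondrocyte genes lie to the right of 0.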

How the data were processed

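Tongue RNA was turned into cDNA by the NuGEN Ovation kit, which amplifies small amounts, per the labels' protocols, and sequenced as 1 library for each genotype. The tools listed are TopHat 1.4.1 and Bowtie 0.12.7 and the build is mm9, per the submitters' processing notes. The authors deposited FPKM per RefSeq transcript and, per the file headers, the coverage of each transcript, a signal unscaled for depth that was proportional to FPKM within each library. The sources used here give neither the version of the counting tool nor read length or strand.

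The 28107 rows were summed to symbols. The coverage of 1 read was taken as 47.3 bases. This was the median of 1001 products of coverage and length that lay between 30 and 65. They came from single-row genes of at least 1000 nt. Estimated reads, library depths and intervals all depend on that chosen window. The estimated reads gave exact Poisson intervals of levels and exact conditional (Clopper-Pearson) intervals of ratios (scipy 1.17.1). Amplified reads are not independent molecules. Log2 ratios are of FPKM plus 1 and understate differences of low genes, while plain ratios are of FPKM. Ratios, fold counts and ratio intervals were checked on simulated Poisson reads at the estimated depths. That check could not cover the bases taken per read, the estimate of reads from coverage, or amplification. The coding sequence of Osr1 was read from GENCODE M21 and translated with Biopython 1.88, that of Osr2 is not reported here, and the RefSeq promoter table used here had no match for either member.

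The members, lists and fold of 1.2 were chosen with earlier results of these data known. Genes named were the members, the nearest 3 symbols on each side, the 3 closest in level and, from each gene group, up to 3 with the largest log2 ratio at 5 FPKM or more. Others, such as unmeasured genes and those placed beside Osr1 by rank, were named after their values were seen. List counts leave out the members.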

Additional observations from a re-analysis of the deposited data

How the results depend on the processing

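The log2 ratio of Osr1 ran from -1.63 to -1.57 and that of Osr2 from 0.27 to 0.35 over 7 alternatives each (other pseudocounts, TPM, 3 other scalings and the coverage column), within the counting intervals of the main values. The coverage column is proportional to FPKM within each library, so its values had to equal the main ones and are no separate check. The lowest value of Osr2 came from setting the median of the crest mesenchyme markers to 0. Counts of genes past 1.2-fold depended more on the settings. Of 591 higher and 429 lower genes, 253 and 177 were counted at 5 FPKM in either library, 900 and 667 with a pseudocount of 0.1, and 111 and 72 at 1.5-fold. Without a filter, without overlapping models and with the median set to 0 they stayed within 1.5 times. The higher minimum leaves fewer genes to count, and the larger fold is stricter by construction. No replicate could be left out, and no paired analysis was possible because each genotype has 1 library.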
